A study of Canis lupus familiaris with 6 samples.

Results

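miR-26a and miR-26b (cfa-miR-26a and cfa-miR-26b in the files) are 2 of the 289 canine miRNAs on the arrays, measured with 4 of 656 probes and 80 of 11560 spots. They were chosen by their measured Sca1 differences and as a pair known to repress EZH2. With arrays assigned to samples by scanner file and then scaled, both were lower in the Sca1+ than in the Sca1- cells of each line. That direction did not hold in every line without scaling, and in P114 it turned with other treatments of background or low signal. Because it was part of the choice, it is given as a description, with no test. The cells were the canine mammary cancer lines CMT-U27, CMT-U309 and P114, stained for Sca1, the surface protein stem cell antigen 1, and separated on a cell sorter into a Sca1+ fraction, which the submitters call cancer stem cells, and a Sca1- fraction, which they call the control. With 1 sample of each fraction from every line, there were 3 samples a fraction, and total RNA of each was hybridised to 1 Agilent array. The CMT-U27 and CMT-U309 samples are described as mono-cultures. Both P114 samples are described as cultures with macrophages, in 1 label field only. The labels do not say whether fractions or lines came from separate cultures, and p-values cover only the spread between these samples.

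miRNAs are short RNAs that guide Argonaute proteins to messenger RNAs and lower their translation and stability, with most of the pairing made by the seed near the 5′ end. miR-26a and miR-26b share their seed and so have largely the same predicted targets. Among these is EZH2, the Polycomb enzyme that methylates histone H3 and keeps genes silent, which is often high in aggressive breast tumours. The transcription factor MYC is known to lower both miRNAs. In mammals each of their genes sits within a gene of the CTDSP family of small phosphatases, which act on RNA polymerase and on the retinoblastoma protein.

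The probes show where the 2 miRNAs can be told apart, so the longest probe of each is printed 5′ to 3′, followed by its reverse complement, the stretch of miRNA it binds (written with T for U). Capitals mark the bases that differ between the 2 miRNAs.
miR-26a 15-base probe: aGcctatcctgGatt
miR-26b 20-base probe: aAcctatcctgAattacttg
miR-26a bound stretch: aatCcaggataggCt
miR-26b bound stretch: caagtaatTcaggataggTt
Over the first 15 bases from the 5′ end of the probes, 13 were identical and 2 differed, G2A and G12A (miR-26a base, position from the 5′ end of the probe, miR-26b base). The second probe of each miRNA, of 14 and 19 bases, lacked the last base at the 3′ end. Binding of one miRNA to the probes of the other was not tested.

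On the array's annotation (canFam2), the 15-base probe of miR-26a maps to chromosome 10 (4863498 to 4863512) and to chromosome 23 (10757563 to 10757577), so its signal joins the products of 2 genes. The coordinates on chromosome 10 are listed from high to low and those on chromosome 23 from low to high. The 20-base probe of miR-26b maps to 19 bases of chromosome 37 (28054023 to 28054041), listed from low to high. In the RefSeq annotation of the assembly UU_Cfam_GSD_1.0, MIR26A-2 on chromosome 10 lies within the bounds of CTDSP2, MIR26A-1 on chromosome 23 within CTDSPL, and MIR26B on chromosome 37 within CTDSP1.

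3 arrays were bright and 3 were dim. The bright arrays B1, B2 and B3 detected 89 to 111 miRNAs with summed signals of 69282 to 70794 intensity units. The dim arrays D1, D2 and D3 detected 39, 22 and 9, with sums of 3228, 1277 and 319.5. The limit of 50 detected miRNAs between the sets was chosen after the data were examined. The deposited value table and the scanner files also attach the arrays to different samples, and which is right could not be settled. By scanner file, the Sca1+ samples of CMT-U27, CMT-U309 and P114 are D1, B1 and D3 in that order, and the Sca1- samples D2, B2 and B3. By value table, the Sca1+ samples are D1, D2 and B1 and the Sca1- samples B2, D3 and B3, again in the order of the lines. In the second reading all Sca1+ samples lay in row 1 of the slide and all Sca1- samples in row 2, so fraction and slide row cannot be told apart. Of 7 epithelial marker miRNAs, 5 were detected on B1, 1 on B2, 1 on D2 and 0 on the other arrays, among them miR-200c on B1 alone. Of 5 leukocyte and macrophage markers, miR-142, which marks blood cells, was detected on no array and miR-223, of myeloid cells, on all 6 at 59.6 to 80.9. The miR-223 signal stayed near level while the summed signals of the arrays fell from 70794 to 319.5, and its source was not tested. miR-146a, induced by inflammation, was at 690 on B1 alone and miR-155, of activated leukocytes, at 189, 139 and 78 on B1, B2 and B3 alone. The summed signal of the detected leukocyte markers was 948 on B1, against 219 on B2, 149 on B3 and 59.6 to 65.7 on the dim arrays, where it was miR-223 alone. miR-150 was detected on no array. The part of the epithelial and leukocyte markers in the results was not tested.

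miR-26a was detected on 5 of 6 arrays and miR-26b on 3 of 6. The total gene signal of miR-26a, the summed signal of its probes in intensity units, reached 392, 342 and 270 on B1, B2 and B3 and was 10.4 on D1 and 14.7 on D2. It was not detected on D3. The bright arrays thus stood far above the dim ones, as their summed signals did. miR-26b had total gene signals of 259, 306 and 287 on B1, B2 and B3 and was detected on none of the dim arrays. The order of the bright arrays therefore differed between the 2 miRNAs, with B1 the highest for miR-26a and the lowest for miR-26b. In bulk RNA, fewer cells holding a miRNA and less of it per cell cannot be told apart.

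**Figure D1:**
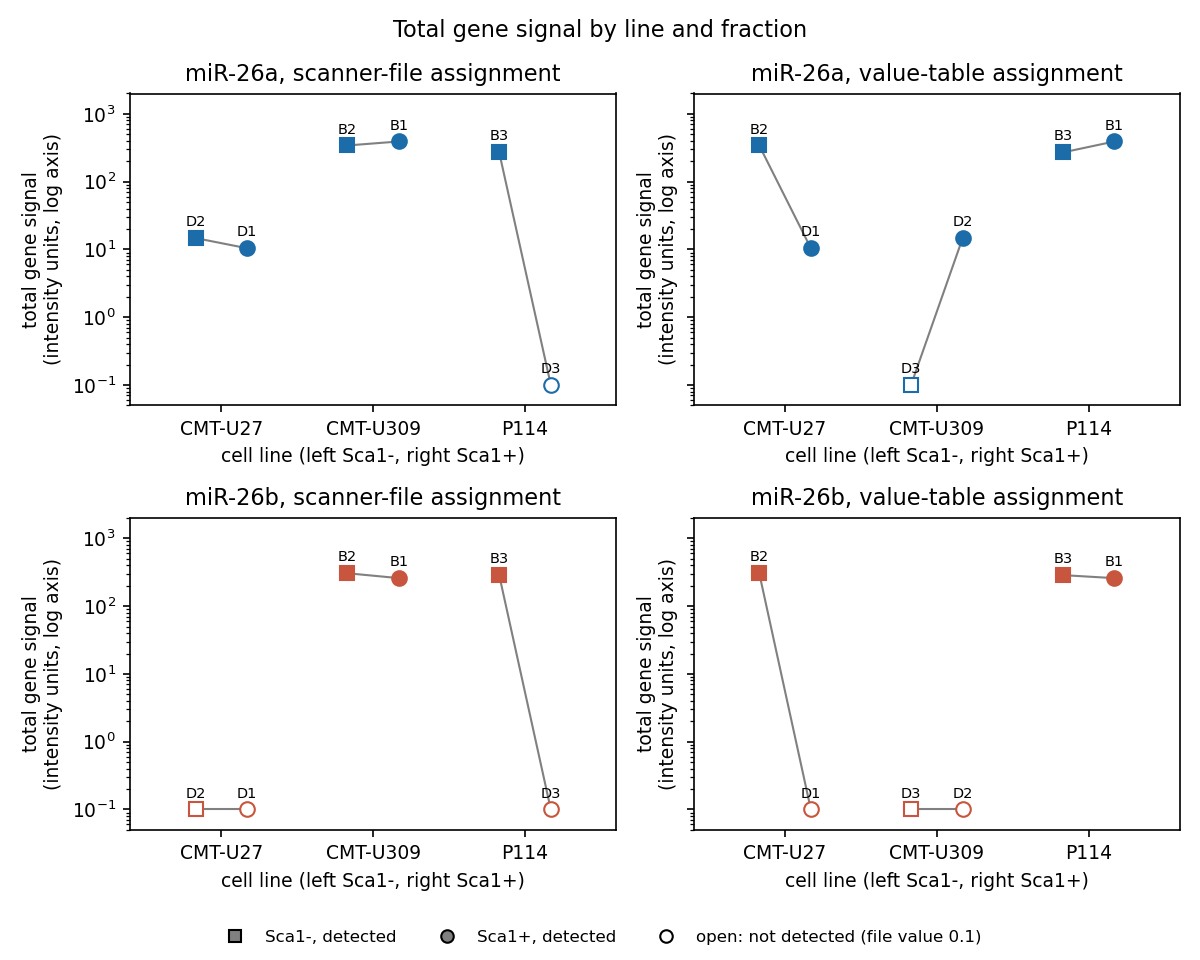
Total gene signal (intensity units, log axis) of miR-26a (top) and miR-26b (bottom) in Sca1- (squares) and Sca1+ (circles) cells of each line, with arrays assigned by scanner file (left) or by value table (right). Each point is 1 array, lines join the fractions of a cell line, and open points, drawn at the file's value of 0.1, were not detected; by scanner file miR-26a was 392 in Sca1+ and 342 in Sca1- cells of CMT-U309, and by value table it was 10.4 and 342 in CMT-U27.

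As a share of the summed signal of its array, miR-26a made up 0.566% on B1, 0.482% on B2 and 0.384% on B3, and miR-26b 0.373%, 0.433% and 0.409%. On the dim arrays miR-26a made up 0.323% on D1 and 1.15% on D2, the latter above the range of the bright arrays. These 2 shares are not fully like those of the bright arrays. The signals of 10.4 on D1 and 14.7 on D2 were of the 15-base probe alone, while those on the bright arrays sum 2 probes. The summed signal of each array also counts only the miRNAs detected on it. The miR-26a signal of 10.4 on D1 was the lowest of any miRNA detected there. These shares show what the dim arrays could have shown. At the shares of the bright arrays, miR-26b would have had a signal of 12.1 to 14 on D1, where the lowest detected signal was 10.4. The same shares give 4.77 to 5.52 on D2, where the lowest detected signal was 7.51, and 1.19 to 1.38 on D3, where it was 12.6. miR-26b at its share on the bright arrays was therefore not detectable at the signal of D2 or D3. On D1 its 12.1 to 14 sums 2 probes (164 and 94.6 on B1), while the lowest detected signal of 10.4 came from 1 probe. Whether miR-26b at that share was within reach of D1 thus cannot be told. For miR-26a on D3 the shares give 1.23 to 1.81, also under the limit there.

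The spots gave the same picture probe by probe, each probe having 20 spots an array. Over spots not flagged as outliers, the processed signal of the 15-base probe of miR-26a was 227 ± 11.6 on B1 (SD over spots, n = 18), 201 ± 8.3 on B2 (n = 19) and 157 ± 11.8 on B3 (n = 20). It was 7.84 ± 1.94 on D1, 11.1 ± 1.97 on D2 and 0.347 ± 2.61 on D3 (n = 20 each). All 20 spots were well above background on each bright array, against 0 on D1, 4 on D2 and 0 on D3. No spot used on D1 or D2 was at or below 0 for this probe, and on D3 11 of 20 were. The 14-base probe had means of 62.4, 53.3 and 39.9 on B1, B2 and B3, and of -1.14, 0.313 and -2.48 on D1, D2 and D3. The detection of miR-26a on D1 and D2 thus rested on 1 of its 2 probes.

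The 20-base probe of miR-26b had means of 121 ± 5.28 on B1 (SD over spots, n = 17), 145 ± 6.82 on B2 (n = 18) and 136 ± 9.6 on B3 (n = 20). On the dim arrays its means were 3.32 ± 2.74 on D1, 3.07 ± 2.55 on D2 and 0.551 ± 2.33 on D3 (n = 18 each). 2 of 20 spots were well above background on D1, 1 on D2 and 0 on D3. The 19-base probe had 69.8, 82.6 and 73.5 on the bright arrays and -0.0161 to 1.88 on the dim ones. For both probes of miR-26b, B2 was the highest and B1 the lowest of the bright arrays, and no spot of either miRNA was saturated. SDs over spots measure the array, not the samples.

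**Figure D2:**
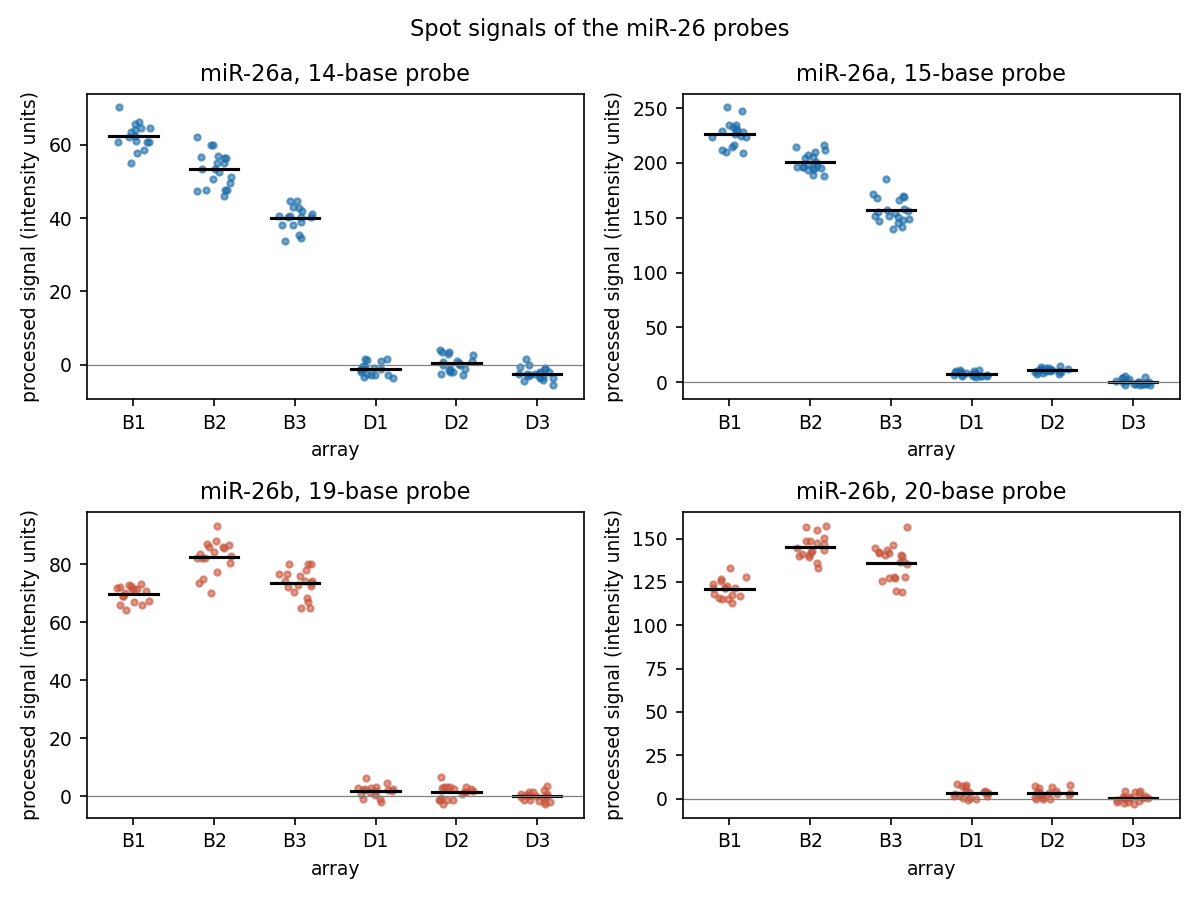
Processed signal (intensity units, linear axes) of every spot of the 4 probes on the 6 arrays, without spots flagged as outliers; black bars are means over spots. On the bright arrays the 15-base probe of miR-26a was highest on B1 and lowest on B3 (means 227, 201 and 157 on B1, B2 and B3), while the 20-base probe of miR-26b was lowest on B1 (121 against 145 and 136), and all dim-array means lay at 11.1 or below.

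In the Sca1 comparison, arrays were scaled by the 75th percentile of 10 probes, those well above background on every array, and log2 differences were taken within lines. By scanner file, miR-26a was lower in Sca1+ cells by log2 differences of -2.39 in CMT-U27, -0.52 in CMT-U309 and -7.12 in P114 (mean -3.35, SD 3.40, n = 3 pairs). For miR-26b the log2 differences were -1.28, -0.96 and -5.15 (mean -2.46, SD 2.33, n = 3 pairs). Being lower in all 3 lines is what the choice required, and 15% of the 80 tested miRNAs were (12 of 80). The median log2 difference of all tested miRNAs was -0.81 in this scaling. limma called 0% of the 80 miRNAs in this comparison (0 at an unadjusted p under 0.05).

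Only the CMT-U309 pair, B1 against B2, had signal well above background on both sides, so the other sizes have no order. Both arrays of CMT-U27 are dim, and neither miRNA was well above background on either. In P114 the Sca1+ array was D3, the dimmest, and after scaling the lowest measurable level on D3 lay above the level of both miRNAs on B3, so no fold is given. Within CMT-U309 the direction of miR-26a followed the scaling: -0.52 by the main scaling, -0.53 with quantile scaling, -0.23 with scaling over all probes and 0.17 without scaling. For miR-26b it was -0.96, -0.90, -0.67 and -0.26, below 0 in each. With a scaling made from the 3 bright arrays alone (122 probes), B1 minus B2 was 0.04 for miR-26a and -0.40 for miR-26b. In CMT-U27 miR-26b turned to higher in Sca1+ cells without scaling, at 0.59. In P114 both miRNAs turned to higher in Sca1+ cells with a floor at the detection limit, at 2.01 and 2.21, and with normexp background, at 2.07 and 2.23.

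**Figure D3:**
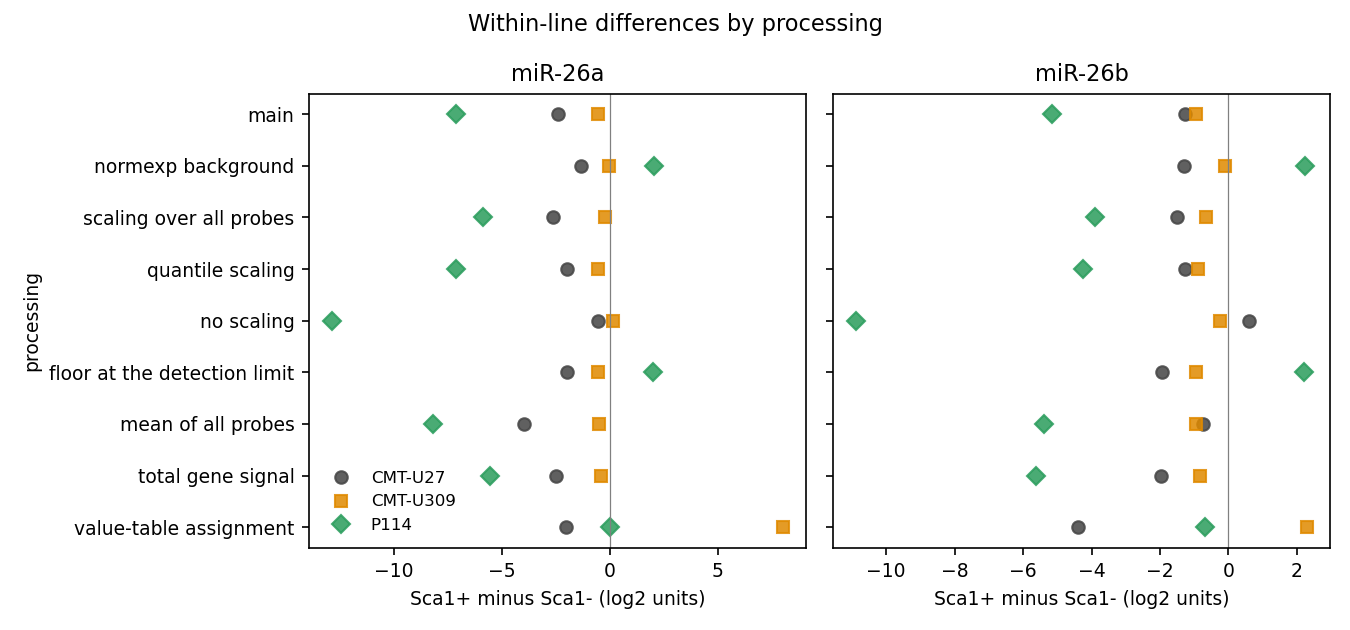
Sca1+ minus Sca1- difference (log2 units) of miR-26a (left) and miR-26b (right) in each line, 1 point per line, under the main processing, 7 alternatives and the value-table assignment. The CMT-U309 points run from -0.53 to 0.17 for miR-26a and from -0.96 to -0.10 for miR-26b by scanner file, while the P114 points range from -12.87 to 2.07 and from -10.89 to 2.23.

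By value table the pair did not move alike in the 3 lines. miR-26a differed between Sca1+ and Sca1- cells by -2.01 in CMT-U27, 8.03 in CMT-U309 and 0.00 in P114 on the log2 scale, and miR-26b by -4.39, 2.30 and -0.70. Here the P114 pair, B1 against B3, is the measured one, and both CMT-U309 arrays are dim. In CMT-U27 the comparison sets D1 against B2. There miR-26a was at least 2.47-fold higher in Sca1- cells and miR-26b at least 1.79-fold higher by the main scaling. With quantile scaling the bound was 1.52 for miR-26a and under 1 for miR-26b, and with scaling over all probes it was under 1 for both. Without scaling the bounds were 16.2 and 11.7, at summed signals of 70794 on B2 and 3228 on D1. These bounds set the level on B2 against the lowest signal well above background on D1. In this reading too, limma called 0% of the 80 miRNAs between fractions (3 at an unadjusted p under 0.05).

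Only on the bright arrays were both miRNAs well above background, and the fractions of these arrays, Sca1+ for B1 and Sca1- for B2 and B3, are the same in both readings. The partner of B1 from its own line is B2 by scanner file and B3 by value table. B1 lay in row 1 of the slide and B2 and B3 in row 2. On the bright arrays fraction and slide row thus cannot be told apart in either reading. With 1 Sca1+ array there is no replicate of that side, and since B1 below B2 was part of the choice, no test is given. Unscaled, the 15-base probe of miR-26a was higher on B1 than on B2 by 0.17 on the log2 scale (SE 0.02 over spots) and higher than on B3 by 0.53 (SE 0.03). The 14-base probe gave 0.23 and 0.64 (SE 0.04 each). For miR-26b the 20-base probe was lower on B1, by -0.26 against B2 (SE 0.02) and -0.17 against B3 (SE 0.03), and the 19-base probe by -0.24 and -0.07 (SE 0.03 each). For these unscaled values of B1 against B2 or B3, the probes of 1 miRNA thus differed in the same direction and the 2 miRNAs in opposite directions. Between B2 and B3 both miRNAs were higher on B2, by 0.42 and 0.36 for miR-26a (14-base and 15-base probe) and 0.17 and 0.10 for miR-26b (19-base and 20-base probe). Cell type markers also differed between these arrays. The detected epithelial markers summed to 5129 on B1, 28.9 on B2 and 0 on B3, and the mesenchymal ones to 19.9, 635 and 623, with miR-140 at 19.9, 390 and 430 and miR-199 undetected, 245 and 193. Of the 5 mesenchymal markers, 1, 2 and 2 were detected, and miR-143, miR-145 and miR-214 on no array. Their part in the result was not tested.

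**Figure D4:**
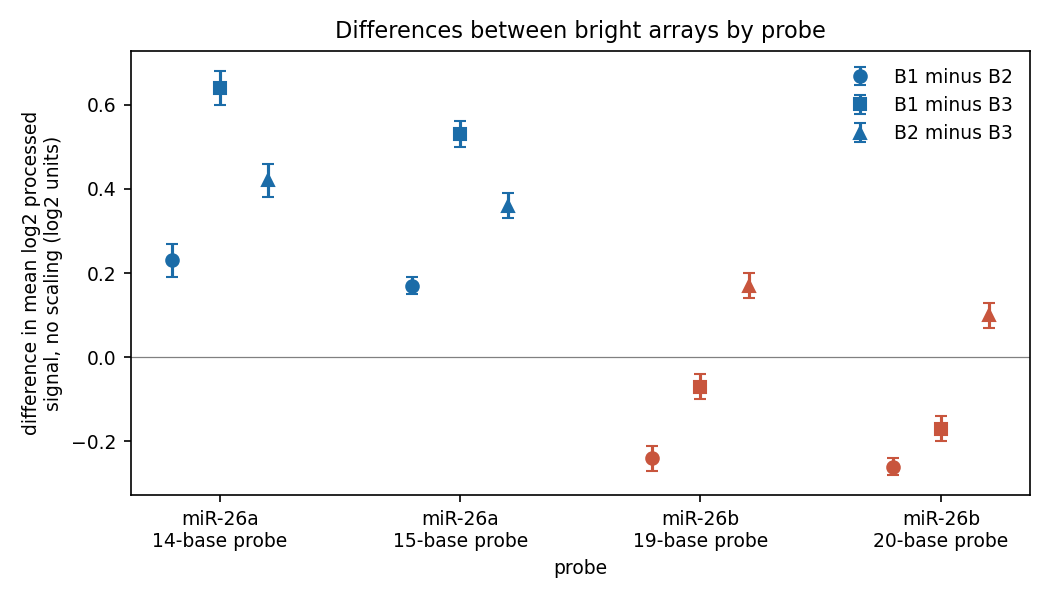
Difference between bright arrays in mean log2 processed signal without scaling (log2 units) for each of the 4 probes; error bars are SEs over spots and so cover the array's own error only. Both miR-26a probes lie above 0 for B1 minus B2 (0.23 and 0.17) and both miR-26b probes below 0 (-0.24 and -0.26). For B2 minus B3 all 4 probes lie above 0.

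The gap between the 2 miRNAs does not depend on a scaling factor, since such a factor shifts both alike. miR-26a minus miR-26b was larger on B1 than on B2 by 0.44 and larger than on B3 by 0.70 on the log2 scale. The same quantity differed between B2 and B3, both Sca1-, by 0.26. The total gene signals gave 0.44, 0.69 and 0.25. With normexp background, which adds an offset of 50 to signals of this size, the values shrank to 0.05, 0.24 and 0.19. Whichever reading is used, B2 and B3 are of different lines, with 1 array each. In their gap a difference between lines and one between arrays cannot be told apart.

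Against the other miRNAs of these arrays, miR-26b stood below the middle and miR-26a slightly below it. Since B1 below B2 was part of the choice, a low place is partly what the choice required. It is given as a description only. The bright arrays were then scaled alone, by the 75th percentile of the 122 probes (70 miRNAs) well above background on all 3, in place of the 10 probes used over the 6 arrays. Scaled so, B1 minus the mean of B2 and B3 was 0.03 for miR-26a and -0.54 for miR-26b on the log2 scale, with a median of 0.16 over the 78 miRNAs detected on all 3. By the 10-probe scaling the same quantity was -0.26 for miR-26a and -0.83 for miR-26b, with a median of -0.13, a setting added after the data were examined. The scaling moved all of them together, with medians from -0.29 to 0.48, so values relative to that median are the steadier ones. miR-26a lay 0.13 below the median on the log2 scale without scaling, with scaling over the 122 probes and over all probes, and 0.10 below with quantile scaling. miR-26b lay 0.70 below in all 4. Of these 4 only quantile scaling could change the distance, since a factor per array shifts all miRNAs alike. Counted from the lowest, miR-26a ranked 37 of 78 and miR-26b 20 of 78 with the 122 probes. With normexp background they lay 0.33 and 0.48 below, ranked 26 and 22.

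**Figure D5:**
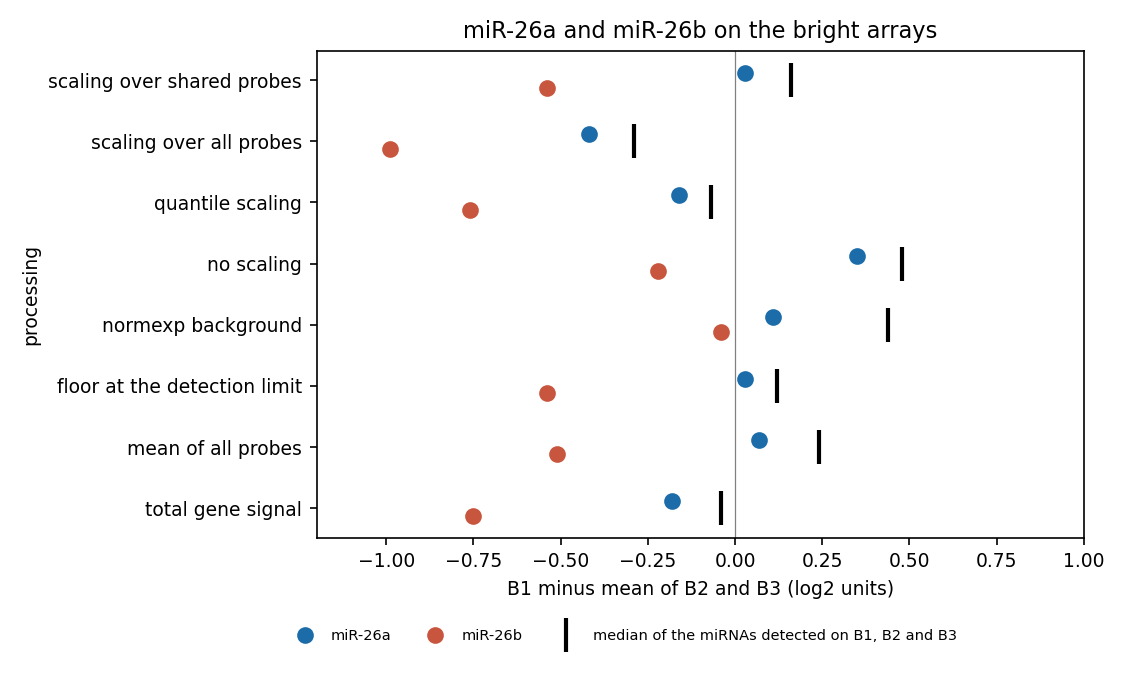
B1 minus the mean of B2 and B3 (log2 units) for miR-26a and miR-26b under 8 ways of processing, with the median of the 78 miRNAs detected on all 3 arrays as a black bar. miR-26a runs from -0.42 to 0.35 and changes sign, miR-26b runs from -0.99 to -0.04, and both lie below the median in each.

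Differences between the cell lines were not used to choose the pair and were tested in the fit over all 80 miRNAs, with fraction as a term. However, miR-26b is among the 80 only through its detection on B1, B2 and B3. It was undetected on both CMT-U27 arrays by scanner file and on both CMT-U309 arrays by value table. Its line values thus set detected against undetected signals and give no independent support. By scanner file neither miRNA passed, with adjusted p = 0.888 for both in limma's test among the 3 lines, where 0% of miRNAs passed (4 at an unadjusted p under 0.05). In each pair of lines 0% passed as well (9 unadjusted for CMT-U309 over CMT-U27 and 0 for the other pairs). miR-26a differed by 0.55 on the log2 scale in CMT-U309 over CMT-U27 (SE 2.46, adjusted p = 0.869 with limma, n = 2 and 2). For miR-26b the value was 3.27 (SE 2.24, adjusted p = 0.692), beside a median of 2.46 over all tested miRNAs. P114 over CMT-U27 gave -3.27 for miR-26a and 0.92 for miR-26b, both at adjusted p = 0.994, and P114 over CMT-U309 gave -3.82 and -2.35, both at adjusted p = 0.791. These last values changed with the P114 array left out: without B3 they were -6.65 (adjusted p = 0.0742 with limma) and -4.37 (0.171), and without D3 -0.99 and -0.34 (both 0.981). In this reading CMT-U27 has 2 dim arrays and CMT-U309 has 2 bright ones. There the mean of miR-26a was at least 1.04-fold higher in CMT-U309 by the main scaling. However, its level on D2 alone, not well above background, was 6.03 on the log2 scale, above B1 (5.12) and B2 (5.65). The bound was under 1 for quantile scaling and for scaling over all probes. By all of these scalings the bound for miR-26b was under 1. Without scaling, where the brightness of the arrays enters in full, the bounds were 16.6 for miR-26a and 10.3 for miR-26b. By value table neither passed among lines either (adjusted p = 0.601 for miR-26a and 0.388 for miR-26b), where 17.5% of the 80 miRNAs did. In P114 over CMT-U309, where 30% of miRNAs passed by value table, miR-26a differed by 3.11 (SE 2.68, adjusted p = 0.396) and miR-26b by 3.65 (SE 1.86, adjusted p = 0.195), with a median of 3.88 over all tested miRNAs.

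The miRNAs with the most similar pattern over the 6 arrays differed between the pair. Among 79 others, the highest Pearson correlations of scaled log2 values with miR-26a were 0.96 for miR-378, 0.94 for miR-19b, miR-29c and miR-106b, and 0.92 for miR-125b. For miR-26b they were 0.98 for miR-99a, 0.97 for miR-101 and miR-182, and 0.96 for miR-23a and miR-183. miR-26a and miR-26b correlated at 0.74, which put miR-26b in place 16 for miR-26a and miR-26a in place 35 for miR-26b. miR-99a, a miRNA that lowers mTOR, had signals of 193, 234 and 199 on B1, B2 and B3, and miR-378 had 451, 261 and 297. Neither was detected on a dim array. All these correlations rest on 6 arrays that differ in brightness, and values of undetected miRNAs enter them.

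Other miRNAs known to repress EZH2 were described as a list of 16 on the array, the pair included. 12 were tested, and 0 passed as higher and 0 as lower between fractions, with a median log2 difference of -0.73 beside -0.81 for all tested miRNAs. 0 of the 12 passed among lines in either reading with limma, beside 0% of all 80 by scanner file and 17.5% by value table. By scanner file 0 of the 12 had an unadjusted p under 0.05, beside 4 of all 80. By value table it was 1 of the 12, beside 30 of all 80. The same 12 were detected on all 3 bright arrays, where 7 lay above and 5 below the median of all 78 miRNAs. A scaling factor per array cannot change these counts. Of the 4 scalings only quantile scaling could, and it gave 7 and 5 too. miR-101, the best known repressor of EZH2, gave 133 on B1, 63.9 on B2 and 74 on B3 and was undetected on every dim array. Scaled over the bright arrays as above, its B1 value was above the mean of B2 and B3 by 0.63 on the log2 scale, opposite in sign to the -0.54 of miR-26b. miR-25, of a cluster that promotes proliferation, had 290, 141 and 115 and stood at 0.85. let-7e, of the let-7 family of differentiated cells, had 50.7, 206 and 292 and stood at -2.54, the lowest of the list. miR-30d (0.03) and miR-98 (0.09) lay close to miR-26a. miR-124, miR-214 and miR-217 were detected on no array.

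The miRNAs known to be lowered by MYC formed a second list of 24 on the array, which shares 10 members with the first (the pair, miR-30d and the let-7 miRNAs). Of 18 tested, 0 passed in either direction between fractions, with a median log2 difference of -0.76. By value table miR-30c passed among lines, with CMT-U309 below both CMT-U27 and P114, and no other member passed. That is 1 of 18, where 17.5% of all 80 miRNAs passed among lines and in CMT-U309 over CMT-U27, and 30% in P114 over CMT-U309. However, no dim array detected miR-30c, whose signals on the bright arrays were 70.3 (B1), 37.3 (B2) and 33.7 (B3). The CMT-U309 samples are D2 and D3 in this reading, while each of the other lines includes a bright array. For miR-30c the line and the brightness of its arrays thus cannot be told apart, and its call gives no independent support. On the bright arrays 8 of 18 lay above the median of all miRNAs and 10 below. Quantile scaling, the only one of the 4 scalings that could change these counts, gave the same. miR-34a, a target of p53, had 37.5 on B1 against 444 on B2 and 363 on B3. miR-22 had 583 against 696 and 839, and miR-29a had 865 against 1313 and 1069, both lower on B1 unscaled, as was miR-26b. miR-16, which restrains the cell cycle, had 1595 against 1189 and 872, and miR-30b had 673 against 456 and 471, both higher on B1 unscaled, as was miR-26a. The lists were chosen with earlier results of these data known, and their counts support nothing further.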

How the data were processed

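Each of the 6 samples has 1 scanner file. The deposited intensity of each spot was made with Agilent Feature Extraction and is background-subtracted and detrended, but not scaled between arrays. Per the file headers the version was 10.10.1.1, while the submitters' processing notes name 10.7.3.1. A further deposited file, the value table, gives total gene signals as intensity for 311 features, with 0.1 where a miRNA was not detected. Every column was equal to a single scanner file (relative tolerance 1e-04), in 2 columns that of the same sample and in 4 that of another, so the table is linear, uncentred and unscaled. The median of each column was 0.1. All arrays lay on 1 slide and were scanned on 1 day. The labels name the dye Cy5, while the files hold 1 green channel.

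Processed signals at or below 0 took the lowest positive value of the array. Spots were averaged on the log2 scale without controls and outlier-flagged spots, and each array was scaled by the 75th percentile over the 10 probes (6 miRNAs) well above background on every array, a probe counting as such where over 50% of its spots were. A miRNA took its probe with the highest mean, and the 80 miRNAs with detection on 3 or more arrays were tested with limma 3.58.1 in R 4.3.3 (with the package data.table, version 1.17.8), with terms for line and fraction, 2 residual degrees of freedom and a Benjamini-Hochberg threshold of 0.05. The fits were tested on simulated data. Samples are paired by cell line, the source of both fractions. Deviations from the fraction means correlated at -0.16 in CMT-U27, 0.58 in CMT-U309 and -0.54 in P114. A bound sets the bright mean against, per dim array, the higher of its lowest probe signal well above background and the probe's own. The number of arrays limits the precision.

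The members and lists were chosen with earlier results of these data known. Named miRNAs are the pair, the lists of EZH2-repressing and MYC-repressed miRNAs, cell type markers, and the 5 of most similar pattern to each member, and examples within lists were chosen after their values were seen. Alternatives were normexp background, other scalings, no scaling, a floor at the detection limit, other probe summaries, no filter, no line term and leaving out each sample. The value-table assignment and the bright arrays alone were added after the data were examined. Full mature sequences were not used here. Of the other marker lists, 0 of 5 mesenchymal miRNAs were detected on the dim arrays, 1 of 2 erythroid miRNAs (miR-451) on B2 and D2, and 0 of 1 endothelial and 0 of 4 muscle miRNAs on any array.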

Additional observations from a re-analysis of the deposited data

Results flagged for a closer look

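With arrays assigned by value table, the difference between Sca1+ and Sca1- cells had opposite signs in different lines. For miR-26a it was -2.01 in CMT-U27 and 8.03 in CMT-U309 on the log2 scale. For miR-26b it was -4.39 in CMT-U27 and -0.70 in P114, against 2.30 in CMT-U309. The difference between lines was not tested, each line has 1 sample per fraction, and the CMT-U309 samples are then D2 and D3, both dim.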

How the results depend on the processing

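Between fractions, 0 miRNAs passed with limma under every alternative run (0 to 3 at an unadjusted p under 0.05). With normexp background the mean Sca1+ minus Sca1- log2 difference was 0.24 for miR-26a and 0.28 for miR-26b, and by value table it was 2.01 for miR-26a and -0.93 for miR-26b. A floor at the detection limit brought the means to -0.16 and -0.23. Over fits without 1 sample it ran from -4.76 to -1.46 for miR-26a and from -3.22 to -1.12 for miR-26b. Without the line term (no replicate block) no call changed.

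Among lines, total gene signals gave 1 miRNA past the threshold, 1 in CMT-U309 over CMT-U27 and 1 in P114 over CMT-U27. The value-table reading gave 14 among lines, 14 in CMT-U309 over CMT-U27 and 24 in P114 over CMT-U309. Without either P114 array, 5 passed in CMT-U309 over CMT-U27 (0 to 5 over fits without 1 sample).

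Log2 differences between lines changed sign as follows, none past the threshold, and those not listed here kept their sign. In CMT-U309 over CMT-U27, miR-26a was -1.08 with normexp, -2.13 when scaled over all probes, -0.09 with total gene signals and -2.63 by value table, and ran from -1.56 to 2.67 over fits without 1 sample. miR-26b was -1.32 with normexp, -0.62 with a floor at the detection limit and -2.06 by value table. In P114 over CMT-U27, miR-26a was 0.80 with the floor, 0.19 with the mean of all probes and 0.48 by value table. miR-26b was -0.37 with normexp and -0.38 when scaled over all probes, and ran from -1.10 to 2.93 without 1 sample. In P114 over CMT-U309, miR-26a was 0.66 with normexp, 0.74 with the floor and 3.11 by value table, and miR-26b 0.95, 1.33 and 3.65. Without 1 sample these ran from -6.65 to -0.99 and from -4.37 to -0.34, and the others from -6.10 to -0.44 (miR-26a, P114 over CMT-U27) and from 2.14 to 4.40 (miR-26b, CMT-U309 over CMT-U27). The cause was not tested. Low signal limits every value that rests on D1, D2 or D3.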
